A study of Mus musculus with 6 samples.

Results

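The carriers and pumps that move bile acids and other organic anions through hepatocytes were compared between dividing and resting liver cells of young mice. The 9 genes were Slc10a1, Slco1b2, Slco1a1, Slco1a4 and Slco2b1, which serve uptake from sinusoidal blood, and Abcb11, Abcb4, Abcc2 and Abcc3, which serve export. Each was chosen by its symbol and was read by the single probe set whose platform annotation gave that symbol alone, so they are 9 of the 19938 genes measured in this way. The animals were 3 transgenic CyclinB1-GFP mice, 3.5 weeks old, and both groups carry the transgene, a green fluorescent protein reporter named after cyclin B1. After liver perfusion, cells were sorted by fluorescence into a GFP-positive fraction, labelled replicating, and a GFP-negative fraction, labelled quiescent, with 3 arrays of amplified total RNA in each. The labels state neither the promoter of the reporter nor the share of each cell type in a fraction. Values are log2 of the deposited intensity, differences are GFP-positive minus GFP-negative on that scale with the standard error from limma, and a gene was called at an adjusted p below 0.05 (Benjamini-Hochberg over all 19938 genes).

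Bile acids return to the liver in portal blood and enter hepatocytes across the sinusoidal membrane. Slc10a1 encodes NTCP, the sodium-dependent bile acid carrier, and the Slco genes encode organic anion transporting polypeptides, which work without sodium. At the canalicular membrane Abcb11 encodes the bile salt export pump, Abcb4 a phosphatidylcholine floppase that loads phospholipid into bile, and Abcc2 the pump MRP2 for conjugated anions such as bilirubin glucuronide. Abcc3 encodes MRP3, a pump of the basolateral membrane that returns conjugates to blood. Nuclear receptors such as FXR and HNF4A are known regulators of several of these genes, and in adult mouse liver Slco1a1 is known for higher expression in males and Slco1a4 for higher expression in females.

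Promoter sequences are shown for the 4 genes the results turn on: Slco1b2 and Slco1a1, each called lower in GFP-positive cells in 1 of 2 fits, Slco1a4, which lies beside Slco1a1, and Abcb11, the main bile acid pump. Each is the 250 bases before the annotated start from RefSeq (GRCm38.p6), with 1 motif of 6 bases in capitals, searched on both strands: AGGTCA, a half-site of nuclear receptors (TGACCT where it lies on the opposite strand).
Slco1b2 (chr6:141629268-141629517, plus strand): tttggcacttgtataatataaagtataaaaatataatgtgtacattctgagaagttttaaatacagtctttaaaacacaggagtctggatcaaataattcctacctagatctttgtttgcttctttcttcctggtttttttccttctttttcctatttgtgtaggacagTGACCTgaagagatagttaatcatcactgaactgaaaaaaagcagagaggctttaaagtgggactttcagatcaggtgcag
Slco1a1 (chr6:141946963-141947212, minus strand): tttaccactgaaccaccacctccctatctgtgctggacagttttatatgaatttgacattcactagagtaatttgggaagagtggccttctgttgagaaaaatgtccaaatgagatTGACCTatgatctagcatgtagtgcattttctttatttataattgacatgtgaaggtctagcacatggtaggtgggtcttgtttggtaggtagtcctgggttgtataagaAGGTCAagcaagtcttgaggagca
Slco1a4 (chr6:141856221-141856470, minus strand): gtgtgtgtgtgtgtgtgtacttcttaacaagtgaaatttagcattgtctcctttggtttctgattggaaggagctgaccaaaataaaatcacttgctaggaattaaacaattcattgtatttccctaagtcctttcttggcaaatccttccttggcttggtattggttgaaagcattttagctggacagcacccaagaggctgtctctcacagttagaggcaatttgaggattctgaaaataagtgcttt
Abcb11 (chr2:69342617-69342866, minus strand): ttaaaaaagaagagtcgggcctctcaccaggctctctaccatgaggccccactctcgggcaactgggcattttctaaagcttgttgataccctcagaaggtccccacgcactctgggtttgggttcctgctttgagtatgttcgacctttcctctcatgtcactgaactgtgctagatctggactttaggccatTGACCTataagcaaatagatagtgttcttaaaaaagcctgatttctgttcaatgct
AGGTCA stood 76 to 81 bases before the start of Slco1b2 and 51 to 56 bases before that of Abcb11, in both on the opposite strand. Slco1a1 had it at 129 to 134 bases (opposite strand) and at 19 to 24 bases before its start, and the Slco1a4 window did not hold it. The table holds 11 windows of 8 transporter genes, and 5 of these windows, each of a different gene (also Slc10a1 and Abcc2), held AGGTCA, as did 14.0% of all 32851 windows of this length. A match is a run of letters and not a measured binding site. In the RefSeq gene order of chromosome 6, Slco1a4 and Slco1a1 are adjacent, and Slco1b2 is separated from Slco1a4 by 1 other protein-coding gene.

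All 6 arrays held abundant hepatocyte transcripts. GFP-positive against GFP-negative cells (mean ± SD, n = 3) gave 13.25 ± 0.06 against 13.31 ± 0.05 for Alb (albumin), 13.11 ± 0.03 against 13.25 ± 0.09 for Ttr (transthyretin) and 12.96 ± 0.15 against 13.11 ± 0.09 for the apolipoprotein gene Apoa1. None of 8 hepatocyte markers was called (median difference -0.12, the largest -0.26 for Serpina1c). The sort showed in 10 of 10 cell division genes, which rose in GFP-positive cells with a median difference of 3.88 and the largest, 4.71, in Prc1. All 10 were called higher, where 1.55% of all genes were. Array medians lay between 4.60 and 4.74, and every transporter was above the median of every array. Precision is limited by the small number of arrays. The arrays numbered 2 stood apart in sex-linked genes: Xist was at 9.03 (GFP-negative) and 9.80 (GFP-positive) there and between 3.73 and 4.04 on the other 4, while the Y-linked Eif2s3y was at 1.98 and 2.24 there and between 6.78 and 7.31 on the others. Each transporter is therefore also described with its difference without number 2. The labels call the arrays biological replicates, and both fractions came from the same 3 livers per the design text, so replicate numbers were taken to pair the fractions of 1 mouse and a fit with the number as a block stands beside the fit on group alone.

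All 9 transporter differences lay below 0, as did 55.7% of all genes, but only Slco1b2 was called lower. It is 1 of 9 transporters (1 of 5 uptake genes and none of 4 export genes), where 0.115% of all genes were called lower and 1.55% higher in GFP-positive cells. The median difference was -0.24 for the 5 uptake genes and -0.33 for the 4 export genes, against -0.03 over all genes. Without number 2 these medians were -0.17 and -0.14, so the order of the classes turned, as it did without GFP-positive 2 alone (-0.27 and -0.24). Without GFP-negative 3 both medians were -0.46. At an unadjusted p below 0.05, 3 transporters were lower (Slco1b2, Abcb4 and Abcb11), where 3.79% of all genes were. The groups did not overlap in 4 of the 9 (Slco1b2, Slc10a1, Abcb4 and Abcb11), as in 6.98% of all genes with the GFP-positive arrays lower. With the replicate block Slco1a1 was called lower and Slco1b2 no longer was, again 1 of 9, where 0.14% of all genes were called lower. In sorted bulk samples, fewer cells of a type and less RNA per cell cannot be told apart.

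**Figure D1:**
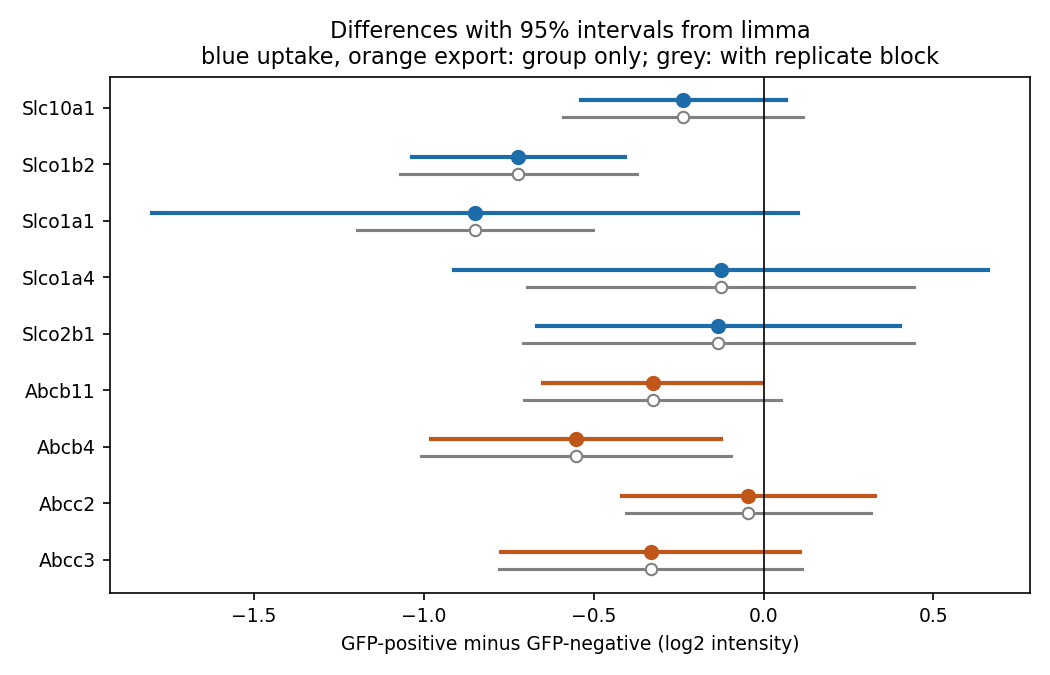
Difference of each transporter between GFP-positive and GFP-negative cells (x axis, log2 intensity) with its 95% interval from limma, for the fit on group alone (blue uptake, orange export) and with the replicate number as a block (grey). The intervals of Slco1b2 and Abcb4 lie below 0 in both fits, although Abcb4 was called in neither. That of Abcb11 lies below 0 on group alone but not with the block. The interval of Slco1a1 runs from -1.80 to 0.10 without the block and from -1.20 to -0.50 with it.

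Slco1b2, which encodes the hepatic carrier OATP1B2, was 1.65-fold lower in GFP-positive cells. Its levels were 11.51, 11.63 and 11.55 in GFP-negative cells of numbers 1, 2 and 3, and 10.71, 11.01 and 10.80 in GFP-positive cells. The 3 GFP-negative arrays lay close together and every GFP-positive array lay below all of them. The difference was -0.72 ± 0.14 (adjusted p = 0.034, 95% interval -1.03 to -0.41), or 60.7% of the GFP-negative level. It was -0.80, -0.62 and -0.74 within numbers 1, 2 and 3. With the block the interval was -1.07 to -0.37 and the adjusted p 0.062. Leaving out single arrays gave differences from -0.81 to -0.65, and the call was lost without any 1 of the arrays except GFP-positive 2 (adjusted p = 0.032 to 0.17), while without both arrays of number 2 the difference was -0.77 and the adjusted p 0.084.

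Slco1a1, which encodes OATP1A1, had the largest measured difference of the 9 genes with all arrays at equal weight, and a wide spread between replicate numbers. It stood at 10.85, 9.76 and 11.23 in GFP-negative cells of numbers 1, 2 and 3, and at 10.08, 8.90 and 10.31 in GFP-positive cells. The groups overlapped, because GFP-negative 2 lay below 10.08 and 10.31, but within each number the GFP-positive array was the lower one. These differences were -0.77, -0.86 and -0.92, close to each other beside an SD over arrays of 0.76 in either group. On group alone the difference of -0.85 ± 0.42 did not pass (adjusted p = 0.63), and with the replicate block it did (-0.85 ± 0.15, adjusted p = 0.026), a 1.80-fold lower level. On group alone, leaving out 1 array moved the difference between -0.42 (without GFP-positive 2) and -1.28 (without GFP-negative 2). Slco1b2 had the larger difference of these 2 genes without GFP-positive 2, GFP-negative 1 or GFP-negative 3, and with array weights (-0.77 against -0.65). Without both arrays of number 2 the Slco1a1 difference was -0.84 and the adjusted p 0.12.

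**Figure D2:**
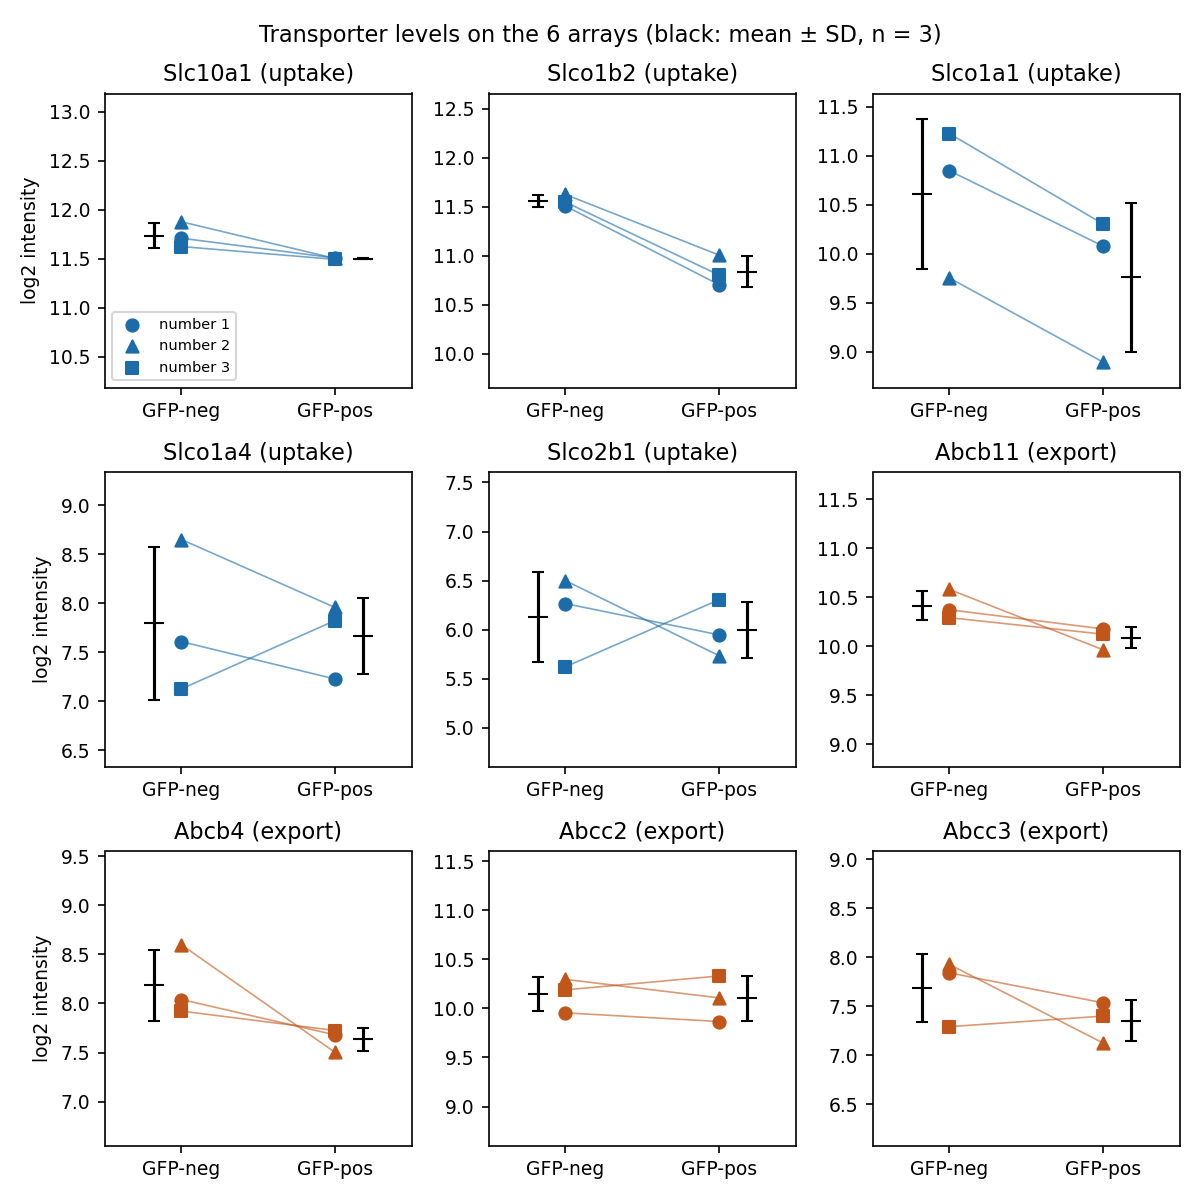
Log2 intensity (y axis, each panel spanning 3 units) of the 9 transporters in GFP-negative and GFP-positive cells, with lines joining arrays of the same replicate number and black bars for the mean ± SD of 3 arrays. The lines of Slco1b2 and Slco1a1 run down nearly in parallel and do not cross, while lines cross in each of the other genes.

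Slco1a4, which encodes OATP1A4 and lies next to Slco1a1, was not called. GFP-negative cells held 7.61, 8.65 and 7.13 in numbers 1, 2 and 3, and GFP-positive cells 7.23, 7.96 and 7.83. Number 2 was the highest array of each group, the opposite of its place in Slco1a1. The difference was -0.13 ± 0.35 (adjusted p = 0.97), with an interval from -0.91 to 0.66 that covers falls and rises of more than 1.5-fold. It changed sign between replicate numbers, at -0.38, -0.69 and 0.70 in numbers 1, 2 and 3, and was 0.16 without number 2. The Slco1a genes are close relatives, and whether their probe sets also bind transcripts of one another was not tested. Slco1a5 and Slco1a6, the other measured relatives, were dim in both groups, with means from 2.99 to 3.15.

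In GFP-negative cells Slco1a1 was 2.43-fold lower in number 2 than the mean of numbers 1 and 3 on the log2 scale, and Slco1a4 was 2.43-fold higher. In GFP-positive cells these figures were 2.46-fold lower for Slco1a1 and 1.35-fold higher for Slco1a4. Number 2 was the 1 mouse with high Xist and low Eif2s3y, so what belongs to its sex and what to that mouse cannot be told apart.

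Slc10a1, the sodium-dependent bile acid carrier gene, differed little and was not called. It measured 11.71, 11.88 and 11.62 in GFP-negative cells and 11.51, 11.50 and 11.49 in GFP-positive cells of numbers 1, 2 and 3. The GFP-positive arrays lay almost at 1 level, below all GFP-negative ones, and the difference was -0.24 ± 0.13 (1.18-fold lower, adjusted p = 0.71). It was -0.20, -0.37 and -0.13 within numbers 1, 2 and 3, and -0.17 without number 2. Its interval, -0.54 to 0.07, does not reach the difference measured for Slco1b2 but overlaps the Slco1b2 interval (-1.03 to -0.41). The difference between these genes was not tested.

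Slco2b1, which encodes the broadly expressed carrier OATP2B1, varied without order. It was 6.26, 6.50 and 5.62 in GFP-negative cells and 5.95, 5.73 and 6.30 in GFP-positive cells of numbers 1, 2 and 3. The groups overlapped throughout, and the difference was -0.13 ± 0.24 (adjusted p = 0.94, interval -0.67 to 0.40). It was -0.32 and -0.76 in numbers 1 and 2 and 0.68 in number 3, and without number 2 the group difference was 0.18.

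Among the export genes Abcb4, the phospholipid floppase gene, had the largest difference. GFP-negative cells gave 8.04, 8.60 and 7.92 and GFP-positive cells 7.68, 7.50 and 7.72 in numbers 1, 2 and 3. The groups did not overlap, and number 2 was highest among the GFP-negative and lowest among the GFP-positive arrays. The difference of -0.55 ± 0.19 (1.47-fold lower) did not pass (adjusted p = 0.35, interval -0.98 to -0.13). It was -1.10 within number 2 against -0.36 and -0.20 within numbers 1 and 3, and it was -0.28 without number 2.

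Abcb11, the bile salt export pump gene, had a smaller difference, again with number 2 highest among the GFP-negative and lowest among the GFP-positive arrays. Its levels were 10.37, 10.58 and 10.29 in GFP-negative cells and 10.18, 9.97 and 10.12 in GFP-positive cells of numbers 1, 2 and 3. Every GFP-positive array lay below every GFP-negative one. The difference was -0.33 ± 0.14 (1.25-fold lower, adjusted p = 0.55, interval -0.65 to -0.0047), with -0.62 in number 2 and -0.20 and -0.17 in numbers 1 and 3. Without number 2 it was -0.18.

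Abcc2, the canalicular conjugate pump gene, was the closest to 0 of the 9 genes. It stood at 9.96, 10.30 and 10.19 in GFP-negative cells and at 9.87, 10.11 and 10.33 in GFP-positive cells. The groups overlapped, and the difference of -0.04 ± 0.17 (adjusted p = 0.98) has an interval from -0.42 to 0.33. It was -0.09, -0.19 and 0.14 within numbers 1, 2 and 3, and 0.03 without number 2. A fall as large as that measured for Slco1b2 lies outside this interval, but the interval overlaps that of Slco1b2 (-1.03 to -0.41). The difference between these genes was not tested.

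Abcc3, the basolateral conjugate pump gene, was 7.84, 7.93 and 7.29 in GFP-negative cells and 7.53, 7.13 and 7.40 in GFP-positive cells of numbers 1, 2 and 3. The groups overlapped through number 3, whose GFP-negative array was low. The difference was -0.33 ± 0.20 (adjusted p = 0.73, interval -0.77 to 0.11), made of -0.31, -0.80 and 0.11 in numbers 1, 2 and 3, and it was -0.10 without number 2.

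Across replicate numbers, 5 of the 9 transporters were lower in GFP-positive cells in all 3 numbers, where 15.3% of all genes were. These were Slc10a1, Slco1b2 and Slco1a1 among the uptake genes and Abcb11 and Abcb4 among the export genes. Number 2 had the lowest difference in 7 of the 9 genes, where it did in 34% of all genes, the exceptions being Slco1b2 and Slco1a1, and number 3 gave a value above 0 in Slco1a4, Slco2b1, Abcc2 and Abcc3.

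**Figure D3:**
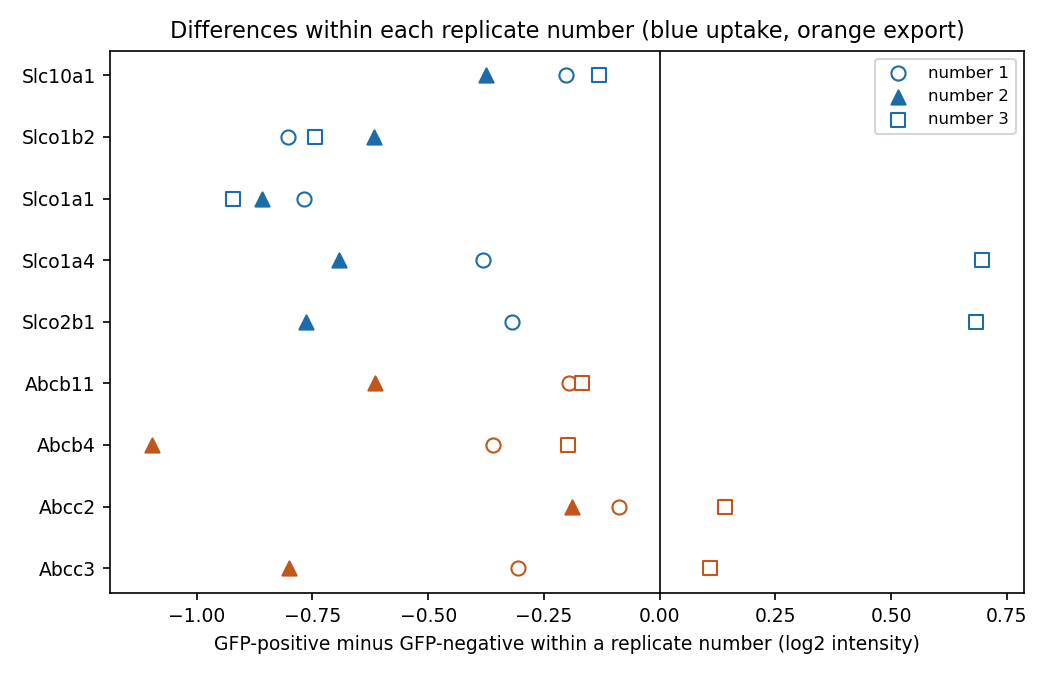
GFP-positive minus GFP-negative log2 intensity (x axis) within replicate numbers 1 (open circles), 2 (filled triangles) and 3 (open squares) for each transporter, blue for uptake and orange for export genes. Slco1b2, Slco1a1 and Slc10a1 (-0.37 to -0.13) have 3 points close together, while Abcb4 runs from -1.10 to -0.20 and Slco1a4 from -0.69 to 0.70.

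The uptake and export genes did not separate as classes. Averaged over its genes, the uptake class differed by -0.49, -0.66 and -0.08 within numbers 1, 2 and 3, and the export class by -0.24, -0.68 and -0.03. Mean uptake minus mean export was 0.54, 0.33 and 0.51 in GFP-negative and 0.28, 0.34 and 0.45 in GFP-positive arrays, so the groups overlapped. Only the change of this score between arrays is read, since probe sets differ in brightness, and that change was -0.10, with -0.26, 0.01 and -0.05 in numbers 1, 2 and 3. It was -0.16 without GFP-negative 2 or without both arrays of number 2, and -0.06 without GFP-negative 1 or GFP-positive 1. With Slco1a1 and Slco1a4 left out of the uptake class it was -0.05. No test was made of these class scores.

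Over the 6 arrays the 9 genes tracked each other loosely. Pearson's r ran from -0.58 to 0.86 over the 10 pairs of uptake genes, from -0.07 to 0.97 over the 6 pairs of export genes and from -0.06 to 0.97 over the 20 mixed pairs, with medians of 0.33, 0.59 and 0.52. The 6 arrays share 3 mice and a group difference, so these are descriptions only. Among 9968 other genes above the median level, the patterns most like Slco1b2 were those of Cp (r = 0.994), Lect2 (0.993) and Mybph (0.993). For Abcb11 they were Mtarc2 (r = 0.9999), Ascc1 (0.997) and Fbxo42 (0.994). None of these 6 genes was called (adjusted p = 0.14 to 0.60).

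No gene of the further pathway lists was called in either direction. These are 5 lists with 54 measured genes, of further transporters, regulators, conjugation enzymes and scaffolds, and the block changed none of this. Cyp7a1, on the pericentral list below, was not in these lists. Over all genes 0.115% were called lower and 1.55% higher. Of the 54 genes, 36 lay below 0 (median -0.10), beside 55.7% of all genes. In limma, 5 of the 54 had an unadjusted p below 0.05, all lower in GFP-positive cells (Abcg5, Abca1, Nr0b2, Ahr and Slc27a5), beside the 3.79% of all genes given above for that direction. At 9 other uptake carriers the median difference was -0.03, with the largest for Slc22a7, the organic anion carrier OAT2 (7.95 ± 0.43 against 8.32 ± 0.20, difference -0.37 ± 0.22, adjusted p = 0.72, or -0.08 without number 2). Of 15 other export and lipid transporters (median -0.12), Abcg5 differed most, at 7.09 ± 0.09 against 7.93 ± 0.35 (difference -0.84 ± 0.18, adjusted p = 0.069, or 0.086 with the block). It was called in 3 of 17 alternatives, with quantile normalization on group alone (adjusted p = 0.032) and with the block, and with array weights. Abcg5 forms the canalicular sterol transporter with Abcg8, which measured 7.35 ± 0.23 against 7.70 ± 0.37 (adjusted p = 0.74).

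The regulators showed no called member either (median -0.20). The smallest adjusted p was that of Ahr, the aryl hydrocarbon receptor gene, which is also on the pericentral list (6.40 ± 0.18 against 7.05 ± 0.05, -0.65 ± 0.14, adjusted p = 0.070, or 0.11 with the block). Its groups did not overlap, and it was called in 4 of 17 alternatives (lowest adjusted p = 0.031). Nr0b2, which encodes SHP, the repressor induced by FXR, had the largest difference of 15 (6.52 ± 0.80 against 7.34 ± 0.38, -0.82 ± 0.35, adjusted p = 0.55, or 0.13 with the block). Nr1h4, which encodes FXR itself, was at 8.64 ± 0.37 against 8.84 ± 0.20 (adjusted p = 0.88), and Hnf4a at 8.44 ± 0.41 against 8.42 ± 0.24 (adjusted p = 0.99). In the 7 genes of conjugation and intracellular binding (median -0.15), Slc27a5, the bile acyl-CoA synthetase gene, differed most (-0.48 ± 0.21, adjusted p = 0.55, or -0.22 without number 2). In the 8 trafficking and scaffold genes (median -0.05) it was Pdzk1, whose protein anchors OATP1A1 at the membrane (-0.34 ± 0.16, adjusted p = 0.59).

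**Figure D4:**
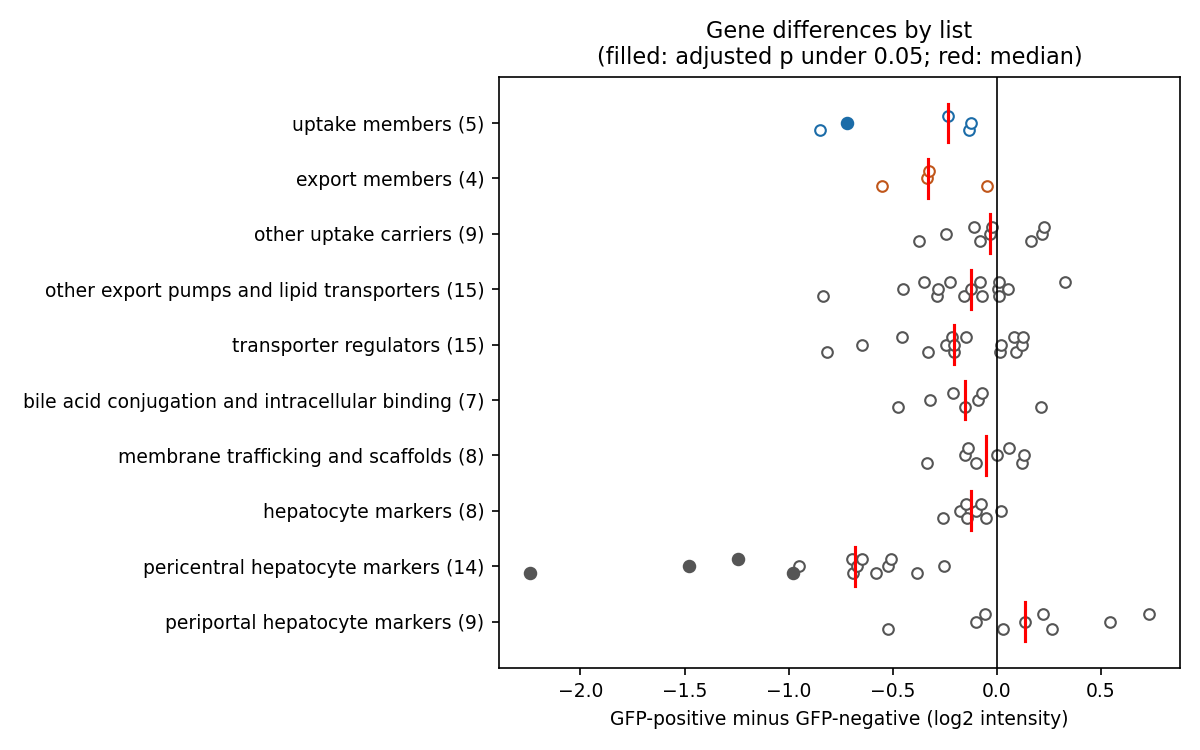
Differences of single genes (x axis, log2 intensity) by list, with the number of measured genes in brackets, filled points for called genes and red bars for list medians. The transporter lists scatter around values slightly below 0 (medians -0.33 to -0.03), and the pericentral markers lie lowest (median -0.68).

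Markers of the hepatocyte zones and of other cell types moved beside these differences as follows. All 14 pericentral markers, genes expressed around the central vein, lay below 0 (median -0.68), and 4 were called lower (Slc1a2, Glul, Oat and Cyp7a1), joined by Slc13a3 with the block. Over all genes 55.7% lay below 0 and 0.115% were called lower, or 0.14% with the block. Cyp7a1 lost its call without number 2 (adjusted p = 0.098), without GFP-positive 1 and without GFP-positive 2 (up to 0.080), and the other 3 kept theirs when arrays were left out. The largest difference was that of Slc1a2, a glutamate transporter gene (5.26 ± 0.13 against 7.50 ± 0.54, adjusted p = 0.00073). The summed intensity of the list ran from 18826 to 20844 in GFP-negative and from 14007 to 14585 in GFP-positive arrays, so the groups did not overlap. Cyp2e1, not called, was the brightest of the list, at 7611 to 8414 in GFP-negative and 6296 to 6996 in GFP-positive arrays. Lect2, one of these markers, is also among the genes nearest in pattern to Slco1b2, while Cp and Mybph are not on the list. They were picked as the highest of 9968 correlations over 6 arrays, so this is a description only. Of 9 periportal markers none was called (median 0.13), with the largest difference in Aldh1b1 (0.73 ± 0.33, adjusted p = 0.58), and their sums ran from 12215 to 17903 and from 14723 to 15371. Lower sums without overlap were not particular to pericentral markers. The 8 general hepatocyte markers summed to 48760 to 49921 in GFP-negative and 44326 to 46795 in GFP-positive arrays. The other export and lipid transporters and the conjugation list were also lower without overlap, and the remaining pathway lists overlapped. The part of the pericentral shift in the transporter differences was not tested.

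Among markers of other liver cells, Clec4f was the 1 called member of 10 Kupffer cell markers (lower, difference -0.68, adjusted p = 0.032), where 0.115% of all genes were called lower. It was not called with the block (adjusted p = 0.077), without number 2 (0.13) or without any 1 array (0.070 to 0.15). The list summed to between 228 and 278 in GFP-negative and between 199 and 213 in GFP-positive arrays. Sums over 10 sinusoidal endothelial markers ran from 381 to 500.1 and from 351 to 366, and over 10 stellate cell markers from 434 to 473 and from 336 to 378, each lower in GFP-positive cells with no member called. The largest differences there were those of Cdh5 (-0.71, adjusted p = 0.44) and Dcn (-0.86, adjusted p = 0.24). Over 8 cholangiocyte markers (largest difference Slc10a2, 0.22), 3 erythroid (Alas2, -0.45) and 7 lymphoid and neutrophil markers (S100a8, -0.97) none was called, and the sums of the groups overlapped for the first 2 of these lists but not for the last, at 136 to 171 against 120 to 127. No marker intensity was 0, and 4 Kupffer, 2 stellate, 5 cholangiocyte, 1 erythroid and 4 lymphoid or neutrophil markers lay below the median of every array. The part of these cells in the transporter differences was not tested.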

How the data were processed

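The authors deposited RMA intensities, per the submitters' processing notes, with 1 value for each probe set on each array. RMA corrects background, normalizes arrays and summarises probes, and its version is not given in the sources used. The scale is linear (1.62 to 15836), so log2 was taken with no further normalization or filter. Of 35512 probe sets, 21789 carry 1 gene symbol, 1621 more than 1 and 12102 no symbol. Symbols were updated by Entrez identifier (21698 probe sets, GRCm38.p6 table), and each of 19938 genes was read at its probe set with the highest mean.

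The 2 groups were compared in R 4.3.3 with limma 3.58.1 (lmFit and eBayes without a trend, 4 residual and 5.44 prior degrees of freedom), adjusted by Benjamini-Hochberg over all genes. The block fit left 2 residual degrees of freedom. No label ties a number to a mouse. Pairing was taken from the design text, which names 3 livers, and from Xist and Eif2s3y. These genes set only number 2 apart, so the pairing of numbers 1 and 3 rests on the numbering, as does the block fit. Same-numbered arrays had correlations of 0.20, 0.06 and -0.05 (numbers 1, 2 and 3) between their deviations from group means. In a simulation of this comparison over 19938 genes, small subsets of genes were changed by 0.5, 1, 2 and 3. The group fit called 4%, 50%, 96% and 98% of these subsets. Fewer genes were changed in all than were called in the data, so these shares hold for that setting only. Noise was drawn for each array alone, with no effect shared by arrays of the same number.

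The transporters and lists were chosen with earlier results of these data known. Named were all 9 transporters, in each pathway list the called genes and the largest difference, in each marker list the largest difference with Alb, Ttr and Apoa1 among hepatocyte markers, Xist and Eif2s3y, and the 3 genes nearest in pattern to Slco1b2 and Abcb11. Abcg8, Nr1h4, Hnf4a, Slco1a5, Slco1a6, Ahr and the called pericentral markers were also named for their role or after their values were seen. Of 59 pathway genes 54 were matched, and the other 5, like Ddx3y of that rule, were not analysed here. Promoter windows came from RefSeq, and no window of Abcc3 was used here. Plots were made with Python 3.11.15 and matplotlib 3.10.9.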

Additional observations from a re-analysis of the deposited data

How the results depend on the processing

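Over 17 alternatives (scaling, filter, pseudocount, probe sets, prior, weights, block and arrays left out), Slco1b2, Slco1a1, Slc10a1, Abcb11, Abcb4 and Abcc3 stayed below 0. Slco1b2 was called in 9 of them and Slco1a1 in 2, both with the replicate block. Some alternatives could not change a difference. Each transporter has a single probe set, so the probe set settings reused its values. The low-third filter, the intensity trend and the block on its own also left every transporter difference as it was. In all these settings the sign was fixed, and any Slco1b2 call there rests on the same difference as the main fit. Signs turned, with no call, for Slco1a4 (0.30 without GFP-negative 2, 0.10 without GFP-positive 1 and 0.16 without both arrays of number 2), Slco2b1 (0.05 without GFP-negative 2 and 0.18 without number 2) and Abcc2 (0.03, 0.07 and 0.03 in the same 3 settings as Slco1a4). With single arrays left out these 3 ran from -0.46 to 0.30, from -0.39 to 0.05 and from -0.16 to 0.07.

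The number of transporters called lower was 1 with all arrays and 0 to 1 when single arrays were left out, and 0 without number 2. Over all genes 23 were called lower. This was 38 with quantile normalization, 13 with arrays centred on their medians, 53 with array weights, 28 with the replicate block, 43 with block and quantile normalization together, 9 without number 2 and 6 to 29 when single arrays were left out. The cause of these changes was not tested. The replicate block changed the calls of Slco1b2 and Slco1a1 and of no other transporter.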
